A study of Mus musculus with 21 samples.

Results

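The genes described here are 35 genes of motile cilia and of the ependymal cells that carry them, out of 55487 genes in the count table. They were measured in the hippocampus of adult male wild type C57BL/6 mice after maternal separation (MS) or standard rearing (SR). The members were chosen by symbol, and Spef1 and 1700007K13Rik were put among them because of their MS against SR difference in these mice. For those genes the MS and SR values are therefore a description and carry no test. All 35 genes passed the filter on low counts and are among the 18146 genes tested.

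In MS, whole nests were moved away from the dam for 4 hr per day between postnatal days 10 and 17, and part of the nesting material was taken from their home cages. SR nests were reared without separation. Hippocampi were dissected at 10 weeks of age, and poly-A RNA of each mouse was made into 1 library, giving 9 MS and 12 SR libraries. Nests were assigned to a condition as wholes and the labels name no nest, so p-values over mice measure the spread between mice, some of which share a nest. Animal numbers run in sets of 3, each of a single condition, and mice carry the letter of their set, with A, B and C for MS and D, E, F and G for SR.

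Libraries held 17276810 to 30449055 counts in all. No libraries agreed within sampling noise, as the closest pair of one condition differed by 3.58 times that noise (chi-square per degree of freedom). MS mouse A2 lay apart, at 27.07 on the first principal component where the others lay between -12.18 and 11.91. It had 418 CPM (counts of a gene scaled to the normalized total of the library) of the striatal transcript Penk, where the others had 13.8 to 135, and 0.692 CPM of the dentate gyrus transcript Dsp, where the others had 54.0 to 138. A2 was left out, as the study also left out 1 outlier. Values below are from 8 MS and 12 SR mice unless A2 is named.

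Motile cilia beat and move fluid. In the brain they stand in tufts on ependymal cells, which line the ventricles, and related cilia are found on the epithelium of the choroid plexus, which secretes cerebrospinal fluid. Their core is a ring of microtubule doublets around a central pair. Dynein arms on the doublets drive the bending, radial spokes and the nexin-dynein complex regulate it, and proteins inside the doublets stabilise them. The transcription factor Foxj1, with RFX factors that bind a site called the X-box, switches on genes of this program. Neurons carry a primary cilium, which does not beat. Ependyma and choroid plexus border the hippocampus and are not part of it, so a dissected hippocampus can hold more or less of them. In bulk tissue, fewer cells of a type and less RNA per cell cannot be told apart.

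The X-box was looked for in the 250 bases before the start of each gene, since the members share a known regulator and the choice of members did not use sequence. RefSeq promoters (GRCm38.p6) matched 29 of the 35 members. Those of Cfap53, Cfap54, Cfap65, Foxj1, Rsph1 and Rsph4a were not used here. A longer form of the site, GTTGC, any base and ATGG, searched on both strands and chosen after the Spef1 promoter had been read, occurred in 227 of 27025 promoters (0.84%) and in 2 of 29 members (6.9%), Spef1 and Cfap44. The match of Spef1 was fixed by that choice, which leaves Cfap44, so nothing is read from this share. The shorter letters GTTGCC, which overlap the longer form where that base is C, occurred in 3195 promoters (11.8%) and in 10 members (34.5%). The forkhead letters GTAAACA, the kind of site Foxj1 binds, occurred in 956 promoters (3.54%) and in 3 members (10.3%), Cfap43, Ak7 and Mlf1. A match is a description and not a bound site. The windows of 30 bases shown here show 1 match to the X-box letters for each member that has one beginning within 40 bases of its start, on the gene's strand and with that match in capitals. A match read from the opposite strand appears as GGCAAC. Cfap44 and Tekt1 each have another match to the shorter letters at that distance. That of Cfap44 overlaps the marked match and is only partly in capitals. That of Tekt1 lies outside the window but for its last base.
Spef1 (chr2:131174827-131174856, minus strand): agtagcgacgGTTGCTATGGtttcggaaaa
Cfap44 (chr16:44394762-44394791, plus strand): gcggagggacGTTGCTATGGcaaccgcagt
Tekt1 (chr11:72361883-72361912, minus strand): cgttgcgtccgtccgGTTGCCatagagacc
Enkur (chr2:21205382-21205411, minus strand): gataaaagccagGTTGCCccgtctcctagc
Hydin (chr8:110266947-110266976, plus strand): cactctgcggttgctgtGGCAACagatggt
Drc1 (chr5:30281363-30281392, plus strand): caggtgactgctttcccttGGCAACggctt
Cfap46 (chr7:139683816-139683845, minus strand): ttggtctgggccccgtctctaGGCAACcgc
Pifo (chr3:106001498-106001527, minus strand): ccgcggttccgttcccttGGCAACgtagta
These windows are shown because they put the Spef1 site beside those of other members close to the start. The RefSeq start of Spef1 lies inside the longer span that GENCODE gives the gene. The promoter of 1700007K13Rik held none of the 3 sets of letters.

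All members were scarce transcripts in this tissue. Per length, their mean levels ran from 0.139 RPKM (CPM per kilobase of exon, Spag17) to 7.00 RPKM (Foxj1), with a median of 1.35 RPKM, and the lowest count of a member in any library was 4. From mouse to mouse most of them varied widely. The SD of log2 CPM among mice of the same condition had a median of 0.60 over the 35 members and of 0.17 over all genes tested. The highest mouse had 1.53 times the CPM of the lowest for Spef1, the steadiest member, and 24.9 times for Mlf1, the least steady by this ratio.

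**Figure D1:**
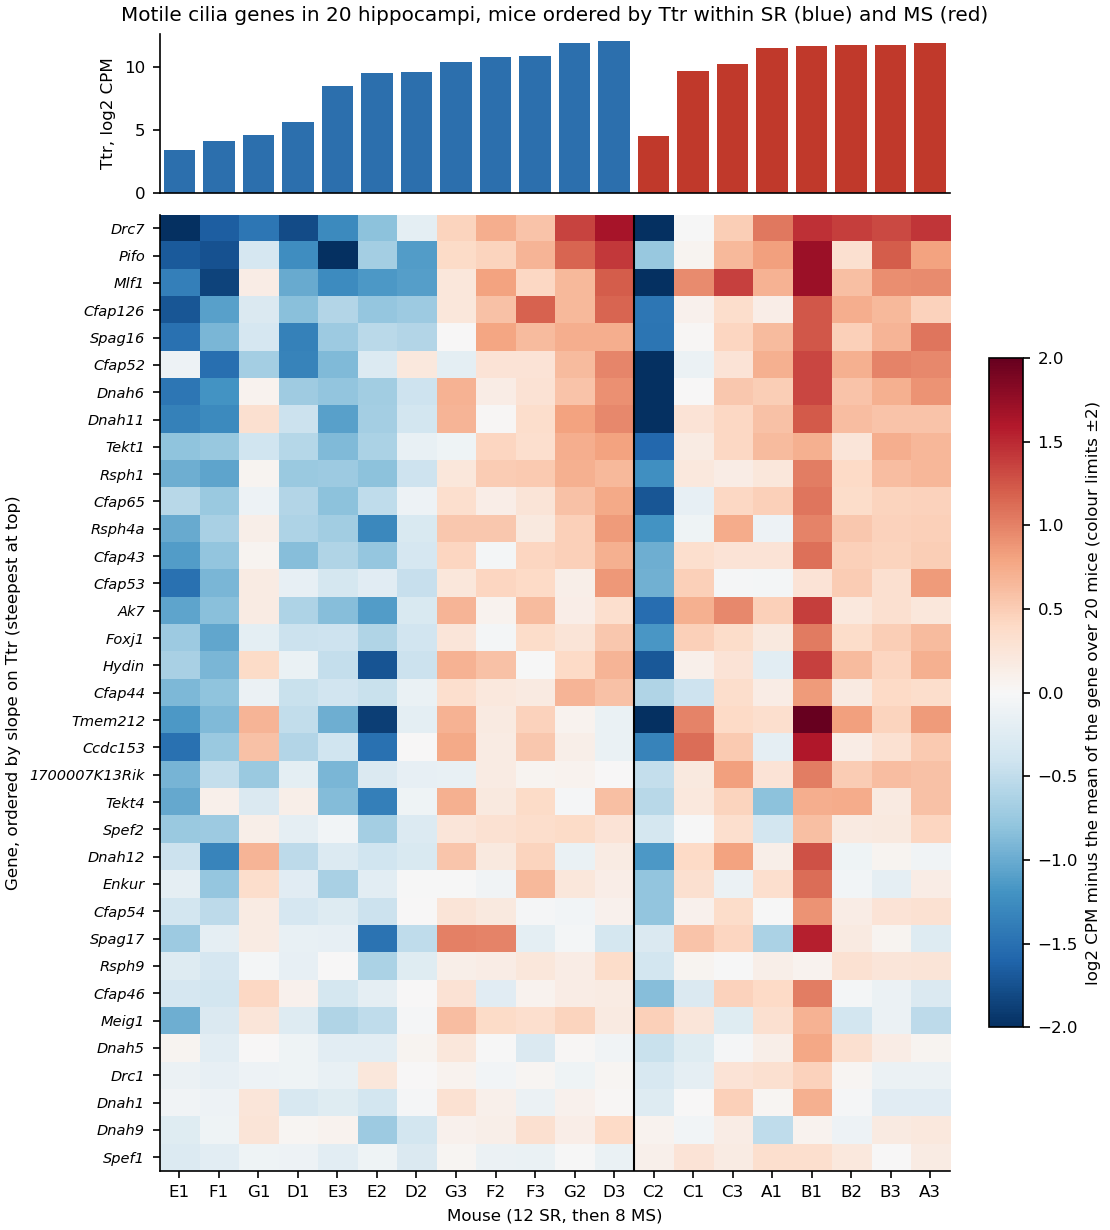
Heat map of log2 CPM of each of the 35 motile cilia genes, relative to the mean of that gene over 20 mice (colour, limits ±2), with mice in columns and bars of log2 CPM of Ttr above them. Rows are ordered by the slope on Ttr. Most genes are blue in the same mice (E1, F1, E2, E3 and D1 in SR, C2 in MS) and red in the same mice (B1 in MS, D3 in SR). The bottom rows, ending with Spef1, are nearly without colour.

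The members largely moved together. After the condition means were taken out, the median correlation between pairs of the 33 members other than Spef1 and 1700007K13Rik was 0.72 over 528 pairs and 20 mice. These pairs share libraries, and the correlations are a description. Each member was also set against the mean log2 CPM of those 33 genes, leaving itself out. The correlation within conditions had a median of 0.87 over the 35 members. It was highest for Rsph1, Cfap43 and Dnah6, a radial spoke head protein, a protein that tethers the dynein arms to the doublets and an inner arm dynein heavy chain (0.97 each). The known ependymal genes Foxj1 (0.96), Tmem212 (0.88) and Ccdc153 (0.84) stood with the rest. The lowest values were those of Spef1 (0.51), Drc1 (0.48), Meig1 (0.47) and Dnah9 (0.45).

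Spef1 and 1700007K13Rik stood at different places on this measure. 1700007K13Rik encodes a protein inside the microtubule doublets and is also called Pierce1. Its correlation with the mean of the other members was 0.82 within conditions, and 0.54 after Ttr had been taken out as well. Its closest member was Tekt1 (0.84), which also encodes a protein inside the doublets. Spef1 encodes a microtubule-binding protein of the central pair. Its correlation was 0.51 within conditions and 0.39 after Ttr. With single members, Spef1 had a median correlation of 0.45, from -0.01 to 0.58 (Meig1), and 1700007K13Rik one of 0.73, from 0.23 to 0.84. Spef1 had an SD of 0.10 in log2 CPM within conditions against 0.40 for 1700007K13Rik, and no test of the difference between these correlations was made. With 181 to 321 counts of Spef1 per library, sampling noise is part of so small an SD. That noise limits how high the correlations of Spef1 can be, and its share was not measured.

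In MS the mean log2 CPM of the 33 other members was 2.40 ± 0.586 (SD, n = 8). In SR it was 2.02 ± 0.507 (SD, n = 12). It was lowest in MS mouse C2 (1.11) and highest in MS mouse B1 (3.19). The SR mice ran from 1.34 to 2.69, inside the MS range. Spef1 stood above this mean by 0.68 to 2.54 log2 units in MS (median 1.21) and by 0.73 to 1.98 in SR (median 1.31). It stood farthest above in C2, the MS mouse with the least of the other members. 1700007K13Rik stood below the mean by -0.77 to -0.15 in MS (median -0.61) and by -1.48 to -0.34 in SR (median -0.94). Relative to the other members, the ranges of MS and SR overlapped for both genes. For Spef1 this measure mostly carries the spread of the other members, so nothing is read from its overlap. Their mean had an SD of 0.52 within conditions, against 0.10 for Spef1.

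In MS compared with SR, most members lay higher in MS, but no member other than Spef1 and 1700007K13Rik had an adjusted p under 0.05. The log2 fold change was above 0 for 34 of 35 members, where 50.3% of all genes tested lay above 0. Its median was 0.34 over the members and 0.00 over all genes, and it ran from -0.01 (Dnah9) to 0.91 (Mlf1). The members' median was 0.22 without MS mouse B1, 0.15 without set B, 0.20 without set E and 0.58 without set C. edgeR's quasi-likelihood test (Benjamini-Hochberg over all genes tested, adjusted p under 0.05) called 1 of 35 members, Spef1, where 0.011% of all genes were called. DESeq2's Wald test called 2 members, Spef1 and 1700007K13Rik, where it called 0.775% of genes. Since these genes were chosen from this contrast, nothing is read from those counts. Of the 33 other members, edgeR and DESeq2 called 0, with edgeR adjusted p between 0.342 and 0.982. DESeq2 gave no adjusted p for 3 of them, Cfap53, Spag17 and Meig1. At an unadjusted p under 0.05, 3 of the 33 were higher in MS (9.09%) and 0 were lower, against 6.62% and 4.92% of all genes. These were Foxj1, Tmem212 and Mlf1. The groups of every member overlapped, and the MS median lay above the SR median in 32 of 35. The shares over all genes for these counts are not given here, so nothing is read from them.

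Spef1 (ENSMUSG00000027329, GRCm38 chromosome 2, 131170261 to 131187282, minus strand) had 11.7 CPM in the lowest MS mouse, a median of 13.2 and 14.6 in the highest, and in SR 9.52, 10.6 and 11.8 CPM. Of the 8 MS mice, 7 lay above the highest SR mouse, and B3 lay inside the SR range. The log2 fold change of Spef1 was 0.33 (standard error, SE, 0.0544). Exons of Spef1 share 20 bases, 0.728% of its exon length, with Cenpb on the same strand, 92 with Cdc25b and 256 with Gm14232 on the opposite strand. The sources used here do not state whether counting used the strand. Cenpb had 165 CPM on average and a log2 fold change of 0.04 (SE 0.0493), and its correlation with Spef1 within conditions was 0.27 over 20 mice.

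1700007K13Rik (chromosome 2, 28462001 to 28466332, minus strand) had 1.85 CPM in the lowest MS mouse, a median of 3.76 and 5.26 in the highest. In SR it had 1.36, 2.28 and 2.89 CPM. Here too 7 of 8 MS mice lay above the highest SR mouse, and the 1 inside the SR range was C2, the MS mouse with the least of the other members. Its log2 fold change was 0.74 (SE 0.167). The MS mouse inside the SR range was thus B3 for Spef1 and C2 for 1700007K13Rik.

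**Figure D2:**
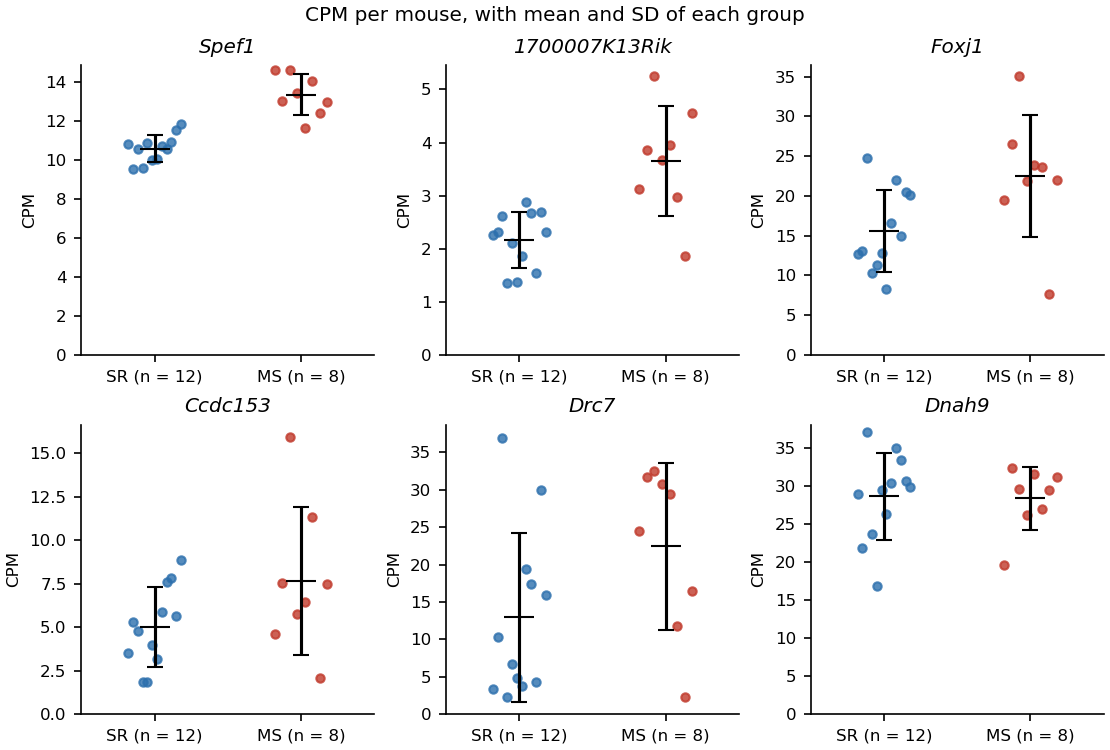
CPM of 6 members in each mouse, SR in blue (n = 12) and MS in red (n = 8), with the mean (long bar) and SD (whiskers) of each group. For Spef1 and 1700007K13Rik 7 of 8 MS mice lie above every SR mouse, while for Foxj1, Ccdc153, Drc7 and Dnah9 the groups overlap widely.

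Foxj1, the transcription factor of the program, had 7.63, 22.8 and 35.1 CPM (lowest, median and highest mouse) in MS and 8.27, 14.0 and 24.8 CPM in SR. The groups overlapped, and C2 was below all SR mice. Its log2 fold change was 0.52 (SE 0.228, edgeR adjusted p = 0.382).

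Among the other ependymal genes, Ccdc153 had 2.07, 6.99 and 16.0 CPM in MS and 1.86, 5.04 and 8.88 CPM in SR. Its log2 fold change was 0.60 (SE 0.329, edgeR adjusted p = 0.502). Tmem212, a membrane protein gene, had 0.302, 2.20 and 5.60 CPM in MS and 0.380, 1.25 and 2.27 CPM in SR. Both genes had their highest value in MS mouse B1, and both groups overlapped. For Tmem212 the log2 fold change was 0.88 (SE 0.353, edgeR adjusted p = 0.342).

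Mlf1 had the highest log2 fold change of the members, 0.91 (SE 0.413, edgeR adjusted p = 0.405). It had 0.172, 2.51 and 4.30 CPM in MS and 0.363, 1.05 and 3.02 CPM in SR, so that MS held both the lowest and the highest mouse. Drc7, a subunit of the nexin-dynein complex, had 2.33, 26.9 and 32.5 CPM in MS and 2.25, 8.47 and 37.0 CPM in SR. Its medians stood far apart, but the highest mouse of all was the SR mouse D3. The log2 fold change of Drc7 was 0.78 (SE 0.520, edgeR adjusted p = 0.592).

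At the other end, Dnah9, Meig1 and Drc1 had the smallest log2 fold changes. Dnah9, an outer arm dynein heavy chain, had 19.6, 29.5 and 32.3 CPM in MS and 16.9, 29.7 and 37.1 CPM in SR. The groups overlapped and the log2 fold change was -0.01 (SE 0.120). Meig1, which is known from sperm formation, had a log2 fold change of 0.08 (SE 0.207). Drc1, another subunit of the nexin-dynein complex, had one of 0.09 (SE 0.0843). Of the most abundant members by CPM, the remaining ones were Cfap65 (log2 fold change 0.34, SE 0.272), the tether protein Cfap44 (0.24, SE 0.215) and the inner arm dynein heavy chain Dnah1 (0.13, SE 0.118). Their groups overlapped as well, and the edgeR adjusted p of these 6 genes lay between 0.670 and 0.982.

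The choroid plexus marker Ttr encodes transthyretin, which that epithelium makes in large amounts. It had 23.3, 2986 and 3765 CPM in MS and 10.4, 747 and 4105 CPM in SR (lowest, median and highest mouse). The groups overlapped over almost the whole range, with a log2 fold change of 0.92 (SE 0.946, edgeR adjusted p = 0.755). The mice fell into 5 below 50 CPM (C2 in MS and D1, E1, F1 and G1 in SR) and 15 above 300 CPM (7 MS and 8 SR).

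The members were asked to follow Ttr from mouse to mouse with the condition as a term in the same edgeR fit. This measure did not choose the members. Spef1 and 1700007K13Rik were chosen from MS against SR, where a small spread within conditions favours a gene. For those genes the slope is therefore not independent of the choice. The slope, in log2 units of the gene per log2 unit of Ttr, was above 0 for 35 of 35 members. It was called positive for 19 of them (54.3%) and negative for 0, where 3.1% of all genes were called positive and 0.121% negative. The called slopes ran from 0.06 (Rsph9) to 0.44 (Drc7). By role, all 3 radial spoke head genes (Rsph1, Rsph4a and Rsph9) were called, as were both tether genes (Cfap43 and Cfap44). Of the genes for proteins inside the doublets, 5 of 7 were called: 1700007K13Rik, Cfap52, Cfap53, Cfap126 and Tekt1, without Tekt4 and Enkur. Of the dynein heavy chains, 2 of 6 were called, Dnah6 and Dnah11, and Dnah1, Dnah5, Dnah9 and Dnah12 were not. Of the central pair genes, 2 of 7 were called, Spef2 and Spag16, and Spef1, Spag17, Hydin, Cfap46 and Cfap54 were not. Drc7, Foxj1, Cfap65, Mlf1 and Pifo were called as well, and Drc1, Ccdc153, Tmem212, Ak7 and Meig1 were not.

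Spef1 and 1700007K13Rik fell on different sides of that threshold. 1700007K13Rik had a slope of 0.11 (SE 0.0233, edgeR adjusted p = 0.00479), and Spef1 one of 0.01 (SE 0.00958, edgeR adjusted p = 0.746). The difference between the slopes was not tested. For Foxj1 the slope was 0.15 (SE 0.0269, edgeR adjusted p = 0.00158), and for Drc7 0.44 (SE 0.0352, edgeR adjusted p = 6.21e-08). The ependymal genes Ccdc153 and Tmem212 had slopes of 0.12 and 0.14 with wider errors (0.0595 and 0.0647) and edgeR adjusted p of 0.482 and 0.453. Without MS mouse C2, 13 members were called and 1700007K13Rik had an adjusted p of 0.0806. Among the 15 mice above 300 CPM, edgeR called 12 members, and neither Foxj1 (adjusted p = 0.128) nor 1700007K13Rik (adjusted p = 0.493) was among them.

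**Figure D3:**
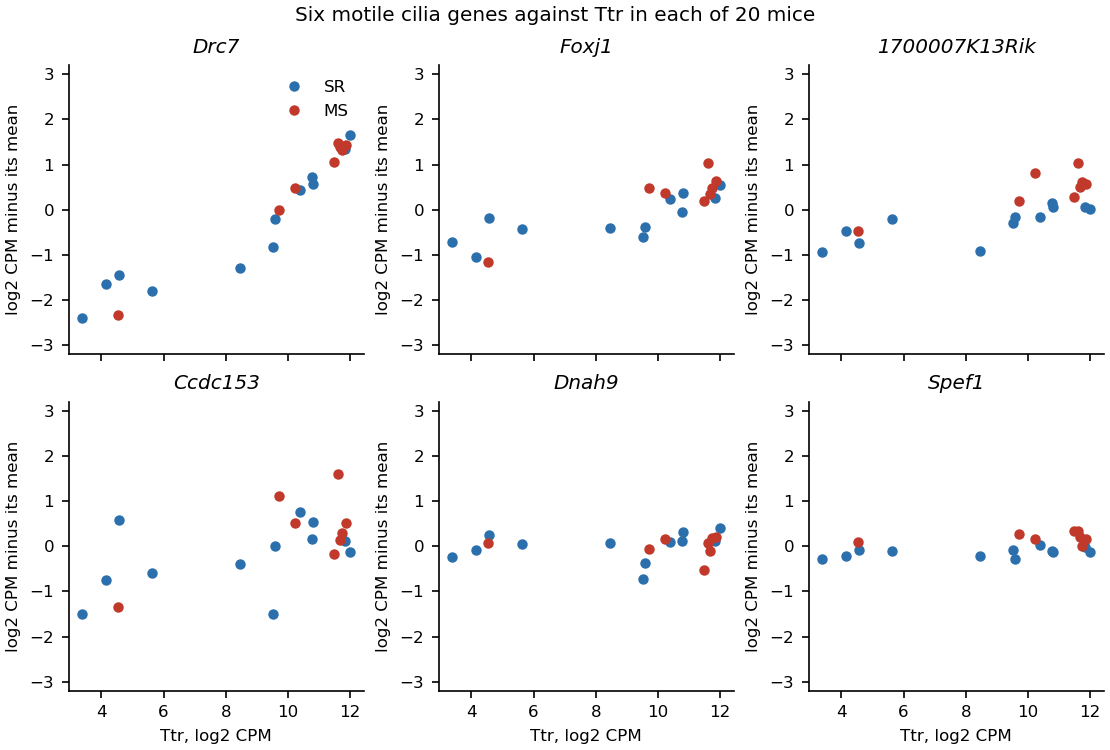
Log2 CPM of 6 members, relative to the mean of each gene over 20 mice, against log2 CPM of Ttr, SR mice in blue and MS mice in red. Drc7 climbs with Ttr along nearly a straight line among the mice at the right, Foxj1 and 1700007K13Rik climb less, Ccdc153 is scattered, and Dnah9 and Spef1 are nearly flat.

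Since 5 mice lay apart in Ttr, correlations with Ttr were taken over the 15 other mice, for 35 members, with permutation p-values not adjusted for that number. These correlations pool MS and SR. All 35 Pearson correlations were above 0, with a median of 0.66, from 0.15 (Drc1) to 0.98 (Drc7). With the condition means taken out the median was 0.62. For Drc7 Pearson's r was 0.98 and Spearman's rho 0.95 (two-sided permutation p = 1e-05 for both, the smallest that 100000 draws can give). It remained 0.98 without E3 and E2, the mice farthest from the median of Ttr. For Foxj1 r was 0.72 (permutation p = 0.00228) and rho 0.69 (permutation p = 0.00624), and without those mice r was 0.54 (permutation p = 0.0591).

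For 1700007K13Rik r was 0.66 (permutation p = 0.00726) and rho 0.50 (permutation p = 0.0627). Without E3 and E2 r was 0.34 (permutation p = 0.254), so the relation rests on those mice. Within the 7 MS mice of the 15 it was 0.29 and within the 8 SR mice 0.83. For Spef1 r was 0.41 (permutation p = 0.123) and rho 0.26 (permutation p = 0.336), and without E3 and E2 r was 0.20. Within the 7 MS mice r was -0.19 and within the 8 SR mice 0.51. With the condition means taken out, r over the 15 mice was 0.22 for Spef1 and 0.64 for 1700007K13Rik. Over all 20 mice it was then 0.36 for Spef1 and 0.77 for 1700007K13Rik.

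With log2 CPM of Ttr in the model, the MS against SR differences of the members shrank. All 35 log2 fold changes were lower than without Ttr, and the median over the members went from 0.34 to 0.10, beside 0.00 over all genes. A decrease was bound to follow, since all 35 slopes on Ttr were above 0 and Ttr had a higher mean in MS. It restates the slopes, and the MS against SR difference of Ttr itself had an edgeR adjusted p of 0.755. Above 0 were 30 of 35, where 51.1% of all genes were, and edgeR called 0 members and 0% of genes. At an unadjusted p under 0.05 and higher in MS were 2 members, Spef1 and 1700007K13Rik, beside 5% of all genes. The 33 others had edgeR adjusted p of 0.724 or more and log2 fold changes from -0.09 (Cfap126) to 0.57 (Tmem212). For the 19 members with a called slope the median went from 0.42 to 0.05, and for the 16 others from 0.29 to 0.10. That split is by slope, so the larger decrease of the 19 was fixed in the same way. Spef1 kept 0.31 (SE 0.0563) and 1700007K13Rik 0.53 (SE 0.131), again as a description. With the mean of the 33 other members in the model in place of Ttr, Spef1 had a log2 fold change of 0.30 and 1700007K13Rik one of 0.49.

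**Figure D4:**
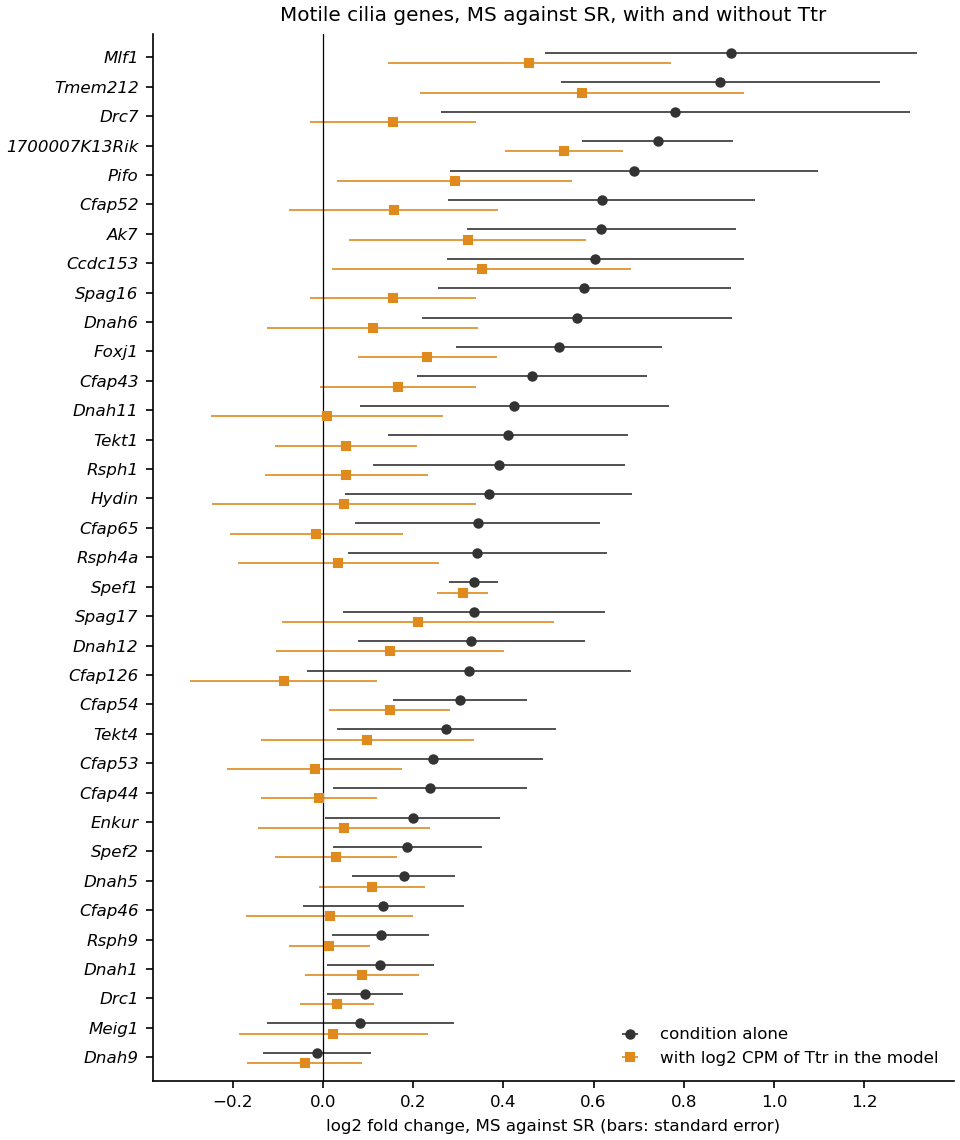
Log2 fold change of each member in MS against SR, with its standard error, from the fit on condition alone (dark circles) and with log2 CPM of Ttr in the model (orange squares). The squares lie to the left of the circles, and that of Spef1 lies close to its circle. The bars of Spef1, 1700007K13Rik, Foxj1, Ccdc153, Tmem212, Cfap54, Ak7, Mlf1 and Pifo with Ttr in the model do not reach 0, and those of the other members do.

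Other genes of the same structures were taken from lists. Of 73 further motile cilia genes measured, 69 were tested (Pih1d3, Rsph14, Ropn1l and Tekt3 were not). Their log2 fold change was above 0 for 59, with a median of 0.24, beside 50.3% above 0 among all genes. edgeR called 0 of them, with 14 higher and 0 lower at an unadjusted p under 0.05, beside 6.62% and 4.92% of all genes. Their mean log2 CPM followed that of the 33 members at 0.99 within conditions over 20 mice, and 25 of 69 had a called positive slope on Ttr, beside 3.1% of all genes. By role, genes for dynein arms and their docking had a median of 0.28 (7 of 16 slopes called), proteins inside the doublets 0.31 (2 of 12), spokes and the nexin-dynein complex 0.23 (5 of 14) and the central pair 0.21 (6 of 10). Transcription and centriole genes had a median of 0.16 (2 of 10), and dynein assembly factors one of 0.02 (3 of 7). The most abundant genes of these lists had log2 fold changes of 0.21 (Wdr78), 0.04 (Cfap20), -0.02 (Gas8), 0.12 (Cfap74), 0.05 (Rfx3) and 0.02 (Spag1). Over the 24 genes of the primary cilium and of intraflagellar transport, the transport along the microtubules of any cilium, the median was -0.02, 9 lay above 0 and 0 slopes were called. The most abundant of these genes, Kif3a, had -0.03, and the list followed the members at 0.17.

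The genes most like the members across mice were also looked up. Among 15822 tested genes of at least 1 CPM, the highest correlations with the mean of the 33 members within conditions (20 mice) were those of Ttc21a (0.98), Armc3 (0.96) and Wdr63 (0.96). Those with 1700007K13Rik were Vwa5b1 (0.88), Spata18 (0.87) and Maats1 (0.87). Wdr63 and Maats1 are in the lists of motile cilia genes. Those with Spef1 were lower and none is in a list used here: N4bp2os (0.75), E430018J23Rik (0.72) and St6gal1 (0.70). Picked from so many genes, these values are a description.

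Choroid plexus and ependymal markers moved with the members. All 19 choroid plexus genes had log2 fold changes above 0, with a median of 0.87, and edgeR called 0, with 0 at an unadjusted p under 0.05. Their summed level was 219 to 6808 CPM in MS (median 5522) and 202 to 7450 CPM in SR (median 1550). Besides Ttr, 18 of 18 had a called slope on Ttr, and with Ttr in the model their median was 0.08. Their mean followed the members at 0.82 within conditions. Of the ependymal genes not of cilia, 8 of 9 tested lay above 0, with a median of 0.15 (0.04 for the most abundant, S100b). Their sum was 214 to 293 CPM in MS and 205 to 239 CPM in SR, and they followed the members at 0.86. Of their slopes on Ttr, 1 of 9 was called positive (Hdc), beside 3.1% of all genes, with a median of 0.03. The 7 striatal genes all lay above 0 (median 0.48, Ppp1r1b 0.48) and followed the members at 0.12. Their sum was 81.9 to 680 CPM in MS (median 120) and 88.1 to 425 CPM in SR (median 107). Of these genes, Penk had 135 CPM in MS mouse B1, which was also highest for most of the members named here, and 13.8 to 23.3 CPM in the other 7 MS mice. In SR it had 81.9 CPM in E2 and 13.9 to 24.5 CPM in the other mice. The fit with Ttr restates the slopes, and the part of these tissues in the members' differences was not tested.

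The list medians of markers of the hippocampus and of its other cells stood near 0, with that of meninges the highest. The median log2 fold change was -0.07 for dentate granule cells (Prox1 -0.14) and -0.07 for pyramidal neurons (Slc17a7 -0.07). It was 0.02 for astrocytes (Slc1a2 -0.09), 0.01 for oligodendrocytes (Mbp 0.01), 0.05 for microglia (Csf1r 0.05) and 0.03 for endothelium (Flt1 0.03). For meninges it was 0.14, with 4 of 5 genes above 0, from -0.14 (Dcn, the most abundant) to 0.76 (Igf2). Of the meninges slopes on Ttr, 2 of 5 were called, those of Lum and Igf2. edgeR called 0 genes of these lists, and 0 had an unadjusted p under 0.05. The correlation of each list's mean with that of the members within conditions was 0.06 for dentate granule cells, 0.08 for pyramidal neurons, -0.58 for astrocytes, -0.47 for endothelium, -0.40 for microglia, 0.45 for oligodendrocytes and 0.62 for meninges. The part of these cells in the members' differences was not tested.

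The mice with little Ttr did not all have little of the other members. SR mouse G1 had 23.7 CPM of Ttr and a mean log2 CPM of 2.20 over the 33 members, where the other mice below 50 CPM had 1.11 to 1.67. Nor were low values of the members confined to mice with little Ttr. SR mice E2 and E3, with 732 and 349 CPM of Ttr, had means of 1.48 and 1.60. In the heat map G1 is pale or red for genes such as Tmem212 and Ccdc153 and blue for Drc7. Between the sets of animal numbers within a condition, edgeR called 0 members and 0.0331% of genes. At an unadjusted p under 0.05 there were 3 members (Dnah5, Spag17 and Tekt4), where 9.09% of all genes were.

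MS mouse A2 lay inside the range of the other mice for most members and outside it for some. It had 5.27 CPM of Ttr, below all 20 other mice, and was also below them all in Dnah9 (5.14 CPM against 16.9 to 37.1), Spef2, Cfap44 and Spag16. For Drc1 it was above them all, with 21.5 CPM against 10.3 to 17.6. Spef1 had 10.9 CPM in A2, inside the SR range. Over all 21 libraries the log2 fold change of Spef1 was 0.30.

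The fold changes were also set against exon length, taken as the union of all annotated exons of a gene. The rank correlation of the log2 fold change with exon length was -0.31 across the 35 members and -0.14 across 18123 genes. Across the members other than Spef1 and 1700007K13Rik it was -0.26. With Ttr slope it was 0.73 across the 35 members. These are across genes, which are not independent replicates, and were not tested. Of the members, 10 share exon bases with another gene, 2 on the same strand and 9 on the opposite one, and their counts are uncertain to that extent.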

How the data were processed

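The authors sequenced hippocampal poly-A RNA with a directional kit, aligned reads to GRCm38 (STAR 2.7.3a), assigned them to Ensembl genes (featureCounts) and deposited the raw counts, 1 column per library, unnormalized and unfiltered. The strand setting of the counting is not given in the sources used here. Samples were grouped by the treatment label.

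After filterByExpr (minimum count 10) and TMM normalization, tests were run in edgeR 4.0.16 (quasi-likelihood, robust, Benjamini-Hochberg over all genes tested, threshold 0.05) in R 4.3.3, with limma 3.58.1 and DESeq2 1.42.0 as alternatives. The biological coefficient of variation was 13.35%. Log2 CPM used a prior count of 2. Each SE is the size of the fitted value over the root of its F statistic. MS library A2 was left out from a PCA of the 500 most variable genes. The design named correlations over 20 mice, and 15 were used because 5 lay apart in Ttr. GENCODE M21 gave symbols and positions for 55227 of 55487 genes.

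Members and lists were chosen with earlier results of these data known. Named were Spef1, 1700007K13Rik, Foxj1, Ccdc153, Tmem212 and Ttr, the 6 other members of highest CPM, the 3 largest and 3 smallest fold changes, the 3 genes most alike to each target and the most abundant gene of each list. The computations were tested on simulated data. Alternatives were other libraries, tests, normalizations, filters, covariates, sets as units and each library left out.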

Additional observations from a re-analysis of the deposited data

Results flagged for a closer look

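Within the 8 MS mice, a mouse lay far from the others for 16 of the 35 members and for Ttr, with a gap to the nearest mouse, relative to the group's range, above Dixon's critical value. Chance flags about 1 in 20 groups, and the 36 genes tested share the same mice. MS mouse C2 was the low one for 15 members and Ttr, at 7.63 CPM of Foxj1, 0.302 of Tmem212, 2.37 of Rsph1, 8.28 of Rsph9, 1.98 of Dnah6, 0.647 of Dnah11, 3.45 of Cfap43 and 0.561 of Cfap52. It had 5.78 CPM of Cfap65, 0.819 of Cfap126, 2.33 of Drc7, 0.69 of Spag16, 1.12 of Tekt1, 1.94 of Ak7, 0.172 of Mlf1 and 23.3 of Ttr. For Foxj1 the nearest MS mouse had 19.4 CPM and for Ttr 829. MS mouse A1 was the low one for Dnah9, at 19.6 CPM where the nearest mouse had 26.2. Spef1 and 1700007K13Rik were not among these genes.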

How the results depend on the processing

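No paired analysis was possible because the labels give no replicate numbers that MS and SR share. edgeR called 2 genes of all and 1 member in MS against SR. Over all 21 libraries and without a filter on low counts edgeR called 1 and 0. With sets as a random block (limma-voom), with counts summed within sets, with Ttr as a term, with the mean of the other members as a term, and in the 15 mice above 300 CPM of Ttr (chosen after seeing the data) 0 and 0 were called. DESeq2 called 119 and 2. Without 1 mouse there were 0 to 109 genes and 0 to 2 members called, 0 members without SR mouse D2, E3 or F1 or MS mouse B1, B2, A1 or A3, and 2 without C2. Without 1 set there were 0 to 340 genes and 0 to 2 members. Because Spef1 and 1700007K13Rik were chosen from this contrast, their direction, adjusted p and calls here are a description and carry no test. Spef1 kept its direction throughout, with adjusted p of 0.0569 (random block), 0.382 (summed), 0.116 (Ttr) and 0.194 (15 mice). 1700007K13Rik was called by DESeq2 (adjusted p = 0.0138), without C2 (0.0307) and without set C (0.0119). The members' median of 0.34 lay between 0.22 and 0.47 without 1 mouse and between 0.15 and 0.58 without 1 set, and was -0.0045 with the mean of the other members as a term, where it is near 0 by construction. Signs changed for 5 named members: Meig1 -0.0018 over 21 libraries, -0.017 with the members' mean, -0.11 in the 15 mice and -0.0903 to 0.242 without 1 mouse or set, Dnah9 2.35e-05 with the random block and -0.0997 to 0.0456 without 1 mouse or set, Cfap65 -0.0148 with Ttr and -0.134 with the members' mean, Cfap44 -0.0088 and -0.0577, and Dnah1 -0.0047 with the members' mean. The slope on Ttr was called for 585 genes and 19 members, for 372 genes with the set in place of condition, for 332 genes and 12 members in the 15 mice, and for 404 to 647 genes and 13 to 22 members without 1 mouse. Without E3 and E2 (2 mice), r with Ttr was 0.34 for 1700007K13Rik and 0.60 for the mean of the other members (0.78 before), and 1700007K13Rik against that mean was 0.65 (0.79 before). In MS alone, r with Ttr was 0.29, 0.38 for that mean and -0.19 for Spef1, and Spef1 against the mean was 0.21 (0.56 before). In SR alone r with Ttr was 0.83 and 0.88. The X-box count of 2 members became 10 with the shorter letters. Counts of 4 to 10 in a library limit the scarcest members, and causes were not tested.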
